A study of Mus musculus with 6 samples.

Results

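The genes described here are 49 genes of DNA replication and S phase, chosen by name for their part in replication licensing, DNA synthesis and nucleotide supply, by a rule that used no measured value but was drawn up when earlier results of these data were known. All 49 were found among the 54532 genes of the table, and all 49 passed the filter on low values (a mean of at least 0.1 FPKM, fragments on a gene scaled by its length and by library size). RNA was sequenced from neutrophils of the bone marrow of wild-type (WT) and progranulin knockout (PGRN KO) mice on the C57BL/6J strain, with 3 libraries of each genotype. Neutrophils were taken from tibias and femurs with anti-Ly-6G magnetic beads and met live *Candida albicans* in culture for 6 h before RNA was extracted, so that both groups carry the fungus and no unstimulated library was compared. The KO mice came from the Jackson Laboratory and the WT mice from another supplier, the number of mice behind a culture is not given, and the labels and the methods give different ratios of fungi to neutrophils. Whether the 3 libraries of a genotype came from separate animals is not stated, so the p-values measure only the spread between these libraries, which may be technical.

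DNA replication starts in G1, when the origin recognition complex, Cdc6 and Cdt1 load the MCM2-7 helicase on origins, a step called licensing that geminin blocks once S phase has begun. In S phase the helicase is switched on by Cdc45 and the GINS complex, primase and DNA polymerase alpha start each strand, and polymerases delta and epsilon extend it behind the PCNA clamp, which replication factor C loads. Many of these genes are transcribed at the G1/S boundary by E2F factors. Dividing neutrophil precursors of the bone marrow (promyelocytes and myelocytes) use this machinery, and mature neutrophils have left the cell cycle.

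Promoter sequences are shown because many members were higher in the same samples. RefSeq promoter windows (GRCm38.p6, from 250 bases before a transcript start to 50 after it) were matched for 40 of the 49 members. The letters TTTCCCGC, TTTCGCGC, TTTGCCGC or TTTGGCGC, forms that E2F factors are known to bind, were searched on both strands, and they were present for 15 of these 40 genes (37.5%), against 704 of all 27025 genes with a window (2.60%) and 450 of the 9322 among them that passed the filter (4.83%). CCAAT boxes, which NF-Y binds, were found on either strand for 25 of the 40 members (62.5%) and for 41.1% of all genes. For the called member of largest change with an E2F match in each of 5 roles, the sequence around the match follows, 5′ to 3′ on the strand of the gene, with the E2F letters and any CCAAT box, or their reverse complements, in capitals. The stretches are Mcm6 at chr1:128359709-128359788 (minus strand), Rfc3 at chr5:151651209-151651288 (minus), Pole2 at chr12:69228162-69228191 (minus), Lig1 at chr7:13278841-13278870 (plus) and Uhrf1 at chr17:56304092-56304171 (plus).
Mcm6: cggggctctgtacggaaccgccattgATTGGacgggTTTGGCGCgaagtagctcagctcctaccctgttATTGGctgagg
Rfc3: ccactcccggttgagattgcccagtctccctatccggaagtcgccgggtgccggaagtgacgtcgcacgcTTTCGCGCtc
Pole2: cgtcggcggtgGCGCCAAAtcgcgaacatg
Lig1: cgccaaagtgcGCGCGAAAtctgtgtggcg
Uhrf1: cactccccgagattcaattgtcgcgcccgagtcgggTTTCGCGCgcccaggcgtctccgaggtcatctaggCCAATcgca
The other members with E2F letters were Cdc6, Cdt1, Dnmt1, Gins3, Mcm3, Mcm5, Mcm7, Orc1, Pola1 and Pold1. The share was 39.1% (9 of 23) for members called higher in PGRN KO and 35.3% (6 of 17) for members not called, and 29.6% (16 of 54) for other replication genes. A match describes the letters of the window and is neither a measured binding site nor a cause, and a window without a match says only that these letters are not in it.

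Grn, which encodes progranulin, was checked first. Grn (chr11:102430315-102437048, GRCm38) was at 168, 161 and 166 FPKM in the WT libraries, but at 0.242, 0.206 and 0.747 in the PGRN KO libraries, so that each library matched its label. Depth was alike in both groups, between 17087344 and 18821091 fragments on genes per library. Of the markers of mature neutrophils, all 12 were measured, S100a9 was the most abundant, and Ly6g, the antigen of the beads, stood at 49.9 ± 2.63 FPKM (SD, n = 3) in WT and at 45.6 ± 6.79 in the knockout. The 12 summed to 67550 to 72170 FPKM in WT and 69350 to 79120 in PGRN KO, a sum of which S100a9 made up 46.6%. Singly, 6 of the 12 had a log2 difference above 0 and 6 below, and the calls among them are given further on. Whether this list separates mature cells from their precursors was not tested.

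Replication genes were higher in PGRN KO neutrophils. Of the 49 members, 29 rose and 0 fell (limma on log2(FPKM + 1), Benjamini-Hochberg adjusted p under 0.05 over 14807 genes), where 7.94% of all tested genes were called higher and 9.95% lower. Voom, a limma test on fragments scaled to the total of each library, called 38 members higher and 0 lower, beside 20.2% and 8.46% of all tested genes. The fit above kept the scaling of the authors. With voom the median log2 difference of all tested genes was 0.124, so part of its larger counts goes with the scaling. At an unadjusted p under 0.05, 34 members were higher and 0 lower by limma, and 42 and 0 by voom. The unadjusted share over all tested genes was not counted, so these unadjusted counts have no background. In 34 members every PGRN KO library lay above every WT library, and in 0 members every one lay below, whereas 18.1% and 19.6% of all tested genes were separated in these ways. The other 15 members overlapped between genotypes. The median log2 difference of the members was 0.33, against 0.00255 for all tested genes, and 7.96% of all tested genes had a larger one. In ratios of mean FPKM the members had a median of 1.36-fold, and those called higher ran from 1.17-fold for Rrm2 to 2.45-fold for Gins1.

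Summed over the 49 members, the level was 266.5, 272.6 and 264.6 FPKM in WT against 335.4, 342.9 and 345.1 in PGRN KO. The genotypes did not overlap in this sum, which was 1.27-fold higher in PGRN KO. No library led its group throughout: the highest value of a member in WT fell in replicate 1 for 14 members, in replicate 2 for 20 and in replicate 3 for 15, and in PGRN KO in replicate 4 for 17, in replicate 5 for 13 and in replicate 6 for 19. Between replicates, the coefficient of variation of a member had a median of 7.58% for WT and 8.04% for PGRN KO. In these bulk libraries, more cells of a type and more RNA per cell cannot be told apart.

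Genes listed for promyelocytes, stem and progenitor cells, and B and plasma cells also had higher sums in PGRN KO. Lists of monocytes, T and NK cells, erythroid cells and basophils are given further on. Of all tested genes, 7.94% were called higher and 9.95% lower. Primary granule and promyelocyte genes summed to 212.0 to 247.0 FPKM in WT and 720.8 to 786.4 in PGRN KO, 7 of the 9 rose, and Elane, encoding neutrophil elastase, was the most abundant. Of the 8 stem and progenitor markers, 3 passed the filter and Kit and Myb rose, with list sums of 3.75 to 4.09 against 5.50 to 5.85 FPKM, while Cd34, Flt3, Gata2, Meis1 and Spink2 had means under 0.1 FPKM. B and plasma cell genes, of which 7 of 11 rose, summed to 89.2 to 97.1 FPKM in WT and 149.6 to 162.9 in PGRN KO. Xbp1 was the most abundant of them but was not called (limma adjusted p = 0.0651). Most of the rise in the sum came from Jchain, at 21.39 to 22.49 FPKM in WT and 63.02 to 77.25 in PGRN KO. Tnfrsf17, among the 7, was at 0 in the WT libraries and passed the filter only through PGRN KO, so it could only be called higher. Among genes of B cell precursors, which divide in marrow, Rag2, Dntt and Pax5 were at 0 in all 6 libraries, and the 8 genes summed to at most 0.0368 FPKM in WT and 0.319 in PGRN KO. Vpreb3, of the same list and the 1 gene of it that passed the filter, did so only through PGRN KO and could only be called higher. It was at 0 in the 3 WT libraries and at 0.261, 0.256 and 0.178 FPKM in those of PGRN KO. Its call (limma adjusted p = 0.0192) rests on 11 fragments and was lost in 3 of the 6 fits that each left out 1 library. The part of these cells in the replication result was not tested.

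**Figure D1:**
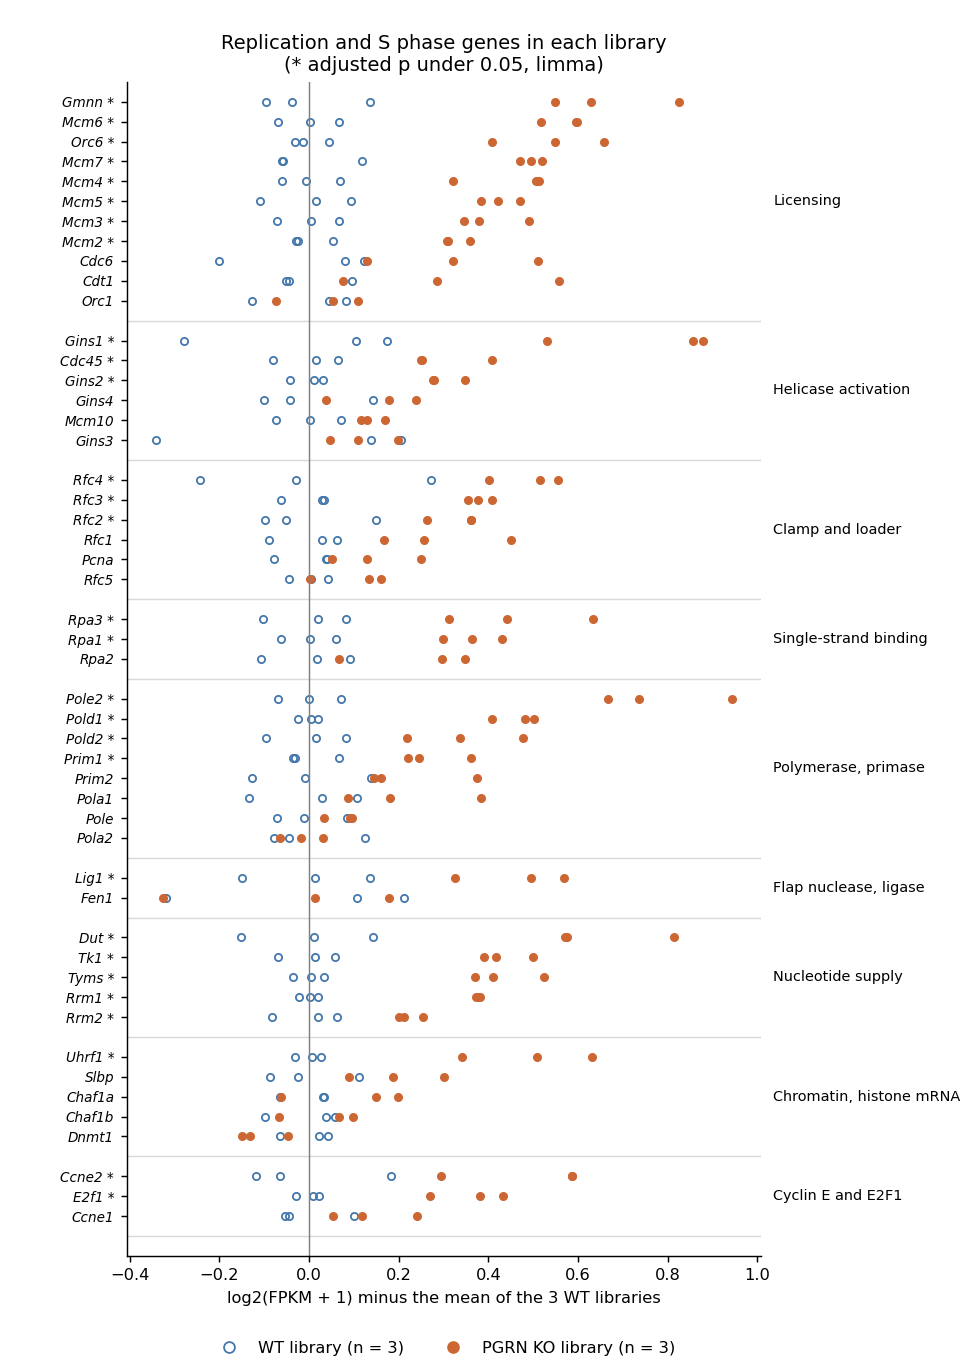
Each of the 49 members (rows, grouped by role) in the 3 WT and 3 PGRN KO libraries (points), as log2(FPKM + 1) minus the mean of the WT libraries, with an asterisk at the 29 members with an adjusted p under 0.05 (limma). In 34 members all PGRN KO points lie to the right of all WT points.

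Most licensing genes rose. Of the 11 members, 8 rose, and their summed level went from 59.4 ± 1.501 FPKM (SD, n = 3) in WT to 85.4 ± 0.0889 in PGRN KO, or 1.44-fold. All 6 genes of the MCM2-7 ring, the core of the replicative helicase, were among the 8, by 1.36-fold to 1.61-fold. Mcm6 (chr1:128331590-128359664), whose promoter letters are shown above, was at 3.63, 3.87 and 4.09 FPKM in WT against 6.34, 5.96 and 6.36 in PGRN KO. The groups were far apart, with a log2 difference of 0.57 (SE 0.061, limma adjusted p = 0.00205). Mcm7 was at 8.94, 10.2 and 8.94 FPKM in WT against 13.8, 13.3 and 13.6 in PGRN KO, a log2 difference of 0.49 (adjusted p = 0.00375). Mcm5, the most abundant ring gene per length, measured 13.02, 12.3 and 11.2 FPKM against 17.2, 16.6 and 16.1, again without overlap (log2 difference 0.43, adjusted p = 0.00699).

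Mcm3 was at 9.30, 10.3 and 9.87 FPKM in WT against 12.8, 14.2 and 13.1 in PGRN KO (log2 difference 0.40, limma adjusted p = 0.00753). Mcm4 was at 5.69, 5.45 and 6.05 FPKM in WT against 7.40, 8.55 and 8.59 in PGRN KO (0.45, adjusted p = 0.00908). Neither overlapped between genotypes. Mcm2, the ring gene of lowest level, gave 2.36, 2.17 and 2.18 FPKM in WT against 3.004, 3.15 and 3.01 in PGRN KO, a log2 difference of 0.33 (adjusted p = 0.0137). Mcm2 and Mcm5 were the lowest and highest ring genes in both genotypes, 5.43-fold apart in WT and 5.45-fold in PGRN KO, so the order at the ends was kept while the levels moved.

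Around the ring, the largest changes were in geminin and an origin subunit. Gmnn (chr13:24751845-24761923), which encodes the inhibitor of Cdt1, was at 5.67, 6.83 and 5.94 FPKM in WT against 10.0, 9.43 and 11.6 in PGRN KO, with no overlap and a log2 difference of 0.67 (SE 0.094, limma adjusted p = 0.00546). Orc6, a subunit of the origin recognition complex, was at 2.53, 2.67 and 2.48 FPKM in WT against 3.72, 4.62 and 4.203 in PGRN KO, also apart (0.54, adjusted p = 0.00635). Cdt1, the loader that geminin binds, did not pass the test (adjusted p = 0.14), with means of 6.02 ± 0.410 and 7.75 ± 1.48 FPKM that overlapped between genotypes. Cdc6, the other loader, had means of 1.12 ± 0.249 and 1.65 ± 0.349 FPKM (adjusted p = 0.143) with every PGRN KO library above every WT library. Orc1 was the member of lowest level, at 0.378 ± 0.105 and 0.406 ± 0.0900 FPKM, and its groups overlapped (adjusted p = 0.854).

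Helicase activation genes were split, with 3 of 6 called higher. Gins1 (chr2:150905400-150931280), which encodes the PSF1 subunit of GINS, had the largest ratio of the members, at 1.01, 1.11 and 0.539 FPKM in WT against 1.70, 2.43 and 2.38 in PGRN KO. Its groups were apart, with a log2 difference of 0.76 (SE 0.15, limma adjusted p = 0.0177), but it rests on 252 fragments over the 6 libraries, the fewest of any member called. Gins2 was at 0.690, 0.629 and 0.713 FPKM in WT against 1.14, 1.03 and 1.03 in PGRN KO (0.30, adjusted p = 0.0224), and 67.3% of its exon bases are shared with Gse1 on the opposite strand, which the library kit does not tell apart. Gse1 itself had means of 3.36 and 2.79 FPKM, and the Gins2 call was lost in 4 of the 6 fits without a library. Cdc45, the helicase cofactor, was at 5.78, 6.02 and 5.35 FPKM in WT against 6.98, 7.90 and 6.98 in PGRN KO (0.30, adjusted p = 0.0283), and its call was lost whenever any library was left out.

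The other members of this role did not pass. Gins4, the GINS gene of highest level, was at 8.07, 6.98 and 6.67 FPKM in WT against 7.43, 8.69 and 8.30 in PGRN KO, so its groups overlapped (limma adjusted p = 0.283). Gins3 had means of 1.14 ± 0.416 and 1.30 ± 0.123 FPKM (adjusted p = 0.641), and Mcm10, which helps to start the helicase, of 3.53 ± 0.229 and 3.98 ± 0.0960 (adjusted p = 0.186). With Gins2 lowest and Gins4 highest in both genotypes, the GINS genes spanned 10.7-fold in WT and 7.63-fold in PGRN KO. The low end of this span depends on how fragments shared by Gins2 and Gse1 were counted, which was not tested.

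**Figure D2:**
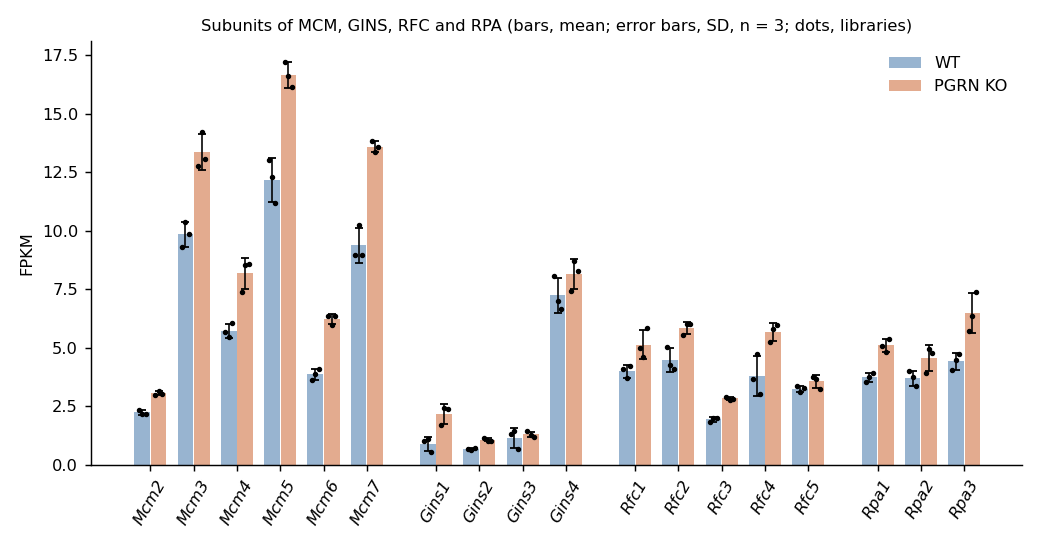
FPKM of the subunit genes of the MCM2-7, GINS, RFC and RPA complexes in WT and PGRN KO (bars, mean, error bars, SD, n = 3 libraries, dots, libraries). All 6 MCM bars are higher in PGRN KO, with Mcm5 highest and Mcm2 lowest in each genotype, and Gins4 stands above the other GINS genes.

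PCNA, the sliding clamp, was the most abundant member and did not pass the test. Pcna was at 51.7, 47.6 and 51.7 FPKM in WT against 52.2, 55.1 and 59.99 in PGRN KO, with the groups apart by a small gap and a log2 difference of 0.14 (limma adjusted p = 0.177). A same-named copy, Pcna-ps2, had means of 0.703 and 1.05 FPKM, and how fragments shared with Pcna were counted was not tested. Of the 5 genes of the clamp loader, replication factor C, 3 rose. Rfc3, whose promoter holds E2F letters just before its start, was at 1.83, 2.01 and 2.02 FPKM in WT against 2.92, 2.77 and 2.83 in PGRN KO (log2 difference 0.38, adjusted p = 0.00908). Rfc2 was at 5.04, 4.26 and 4.09 FPKM in WT against 5.54, 6.00 and 6.00 in PGRN KO (0.33, adjusted p = 0.0338). Rfc4 was at 3.65, 4.73 and 3.01 FPKM in WT against 5.26, 5.78 and 5.97 in PGRN KO (0.49, adjusted p = 0.0453). All 3 were without overlap, but the calls of Rfc2 and Rfc4 were each lost in 5 of the 6 fits that left out a library. Rfc1, the large subunit, had means of 4.003 ± 0.274 and 5.14 ± 0.627 FPKM (adjusted p = 0.0688), and Rfc5 of 3.25 ± 0.130 and 3.56 ± 0.266 (adjusted p = 0.373).

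Replication protein A coats unwound strands, and 2 of its 3 genes rose. Rpa1, the large subunit, was at 3.54, 3.74 and 3.94 FPKM in WT against 5.09, 4.83 and 5.38 in PGRN KO (log2 difference 0.36, limma adjusted p = 0.0115). Rpa3, the small subunit, was at 4.04, 4.49 and 4.73 FPKM in WT against 5.72, 6.35 and 7.39 in PGRN KO (0.46, adjusted p = 0.0201). The Rpa3 call was lost in 3 of the 6 fits without a library. Both were apart between genotypes, whereas Rpa2 overlapped, at 3.70 ± 0.322 and 4.55 ± 0.559 FPKM (adjusted p = 0.14). The 3 genes lay within 1.19-fold of each other in WT and 1.43-fold in PGRN KO, on the FPKM scale.

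Among the polymerase and primase genes, 4 of 8 rose. Pole2 (chr12:69201773-69228195), the second subunit of polymerase epsilon, had the largest log2 difference of the members, 0.78 (SE 0.091, limma adjusted p = 0.00274). It was at 1.29, 1.52 and 1.40 FPKM in WT against 2.995, 3.61 and 2.81 in PGRN KO, a 2.24-fold rise in which the lowest PGRN KO library was well above the highest WT library. Pold1, the catalytic subunit of polymerase delta, was at 3.54, 3.68 and 3.63 FPKM in WT against 5.44, 5.53 and 5.12 in PGRN KO (0.46, adjusted p = 0.00306). Its partner Pold2 was at 1.27, 1.46 and 1.57 FPKM in WT against 2.07, 2.38 and 1.82 in PGRN KO (0.34, adjusted p = 0.0446). Prim1, the catalytic primase subunit, was at 2.27, 2.51 and 2.28 FPKM in WT against 2.97, 2.90 and 3.30 in PGRN KO (0.28, adjusted p = 0.0376). These groups did not overlap, though the Prim1 call was lost in each fit without a library and that of Pold2 in 5 of 6.

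The catalytic and accessory genes of 1 polymerase did not always share a call. Pole, the catalytic subunit of polymerase epsilon, had means of 0.548 ± 0.0852 and 0.627 ± 0.0391 FPKM (limma adjusted p = 0.526) where Pole2 rose. Pola2, the accessory subunit of polymerase alpha, was the highest gene of the role at 6.64, 7.60 and 6.46 FPKM in WT against 7.06, 6.79 and 6.54 in PGRN KO, so that the groups overlapped (adjusted p = 0.895). Pola1, its catalytic partner, had means of 0.615 ± 0.136 and 0.880 ± 0.201 FPKM (adjusted p = 0.213), and Prim2 of 1.34 ± 0.217 and 1.74 ± 0.249 (adjusted p = 0.18). Differences between these subunits were not tested.

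Okazaki fragments are trimmed by Fen1 and joined by Lig1. Lig1, DNA ligase I, was at 8.93, 8.11 and 7.14 FPKM in WT against 12.4, 11.7 and 10.3 in PGRN KO, with a log2 difference of 0.46 (limma adjusted p = 0.0194) and no overlap, a call lost in 4 of the 6 fits without a library. Fen1, the flap endonuclease, ranged over 0.462 to 1.11 FPKM in WT and 0.455 to 1.06 in PGRN KO (adjusted p = 0.894). Fen1 was the member with the widest spread, a coefficient of variation of 40.3% for WT and 39.2% for PGRN KO. Of its exon bases, 78.8% overlap Gm10143 on the other strand, which the library kit does not tell apart. Gm10143 was near 0, but how fragments shared by both genes were counted was not tested, so the level of Fen1 is uncertain.

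Nucleotide supply was the role in which every member rose, 5 of 5. Dut (chr2:125247190-125258608), the dUTPase that keeps uracil out of DNA, was at 3.25, 3.76 and 4.22 FPKM in WT against 6.02, 7.31 and 6.04 in PGRN KO, a log2 difference of 0.65 (SE 0.10, limma adjusted p = 0.00821). Tyms, thymidylate synthase, was at 1.17, 1.23 and 1.27 FPKM in WT against 1.88, 2.20 and 1.96 in PGRN KO (0.43, adjusted p = 0.00877). The salvage kinase Tk1 was at 2.00, 1.92 and 1.75 FPKM in WT against 2.86, 2.79 and 3.08 in PGRN KO (0.44, adjusted p = 0.00788). All 3 were apart between genotypes. Ribonucleotide reductase makes deoxynucleotides, and its large subunit Rrm1 had tight groups, at 5.51, 5.62 and 5.71 FPKM in WT against 7.61, 7.58 and 7.55 in PGRN KO (0.38, adjusted p = 0.0036). The small subunit Rrm2, the second most abundant member, was at 22.3, 24.7 and 24.0 FPKM in WT against 27.3, 27.5 and 28.4 in PGRN KO (0.22, adjusted p = 0.0288). Rrm2 had the smallest ratio of the members called, 1.17-fold, and lost its call in each fit without a library.

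Genes of DNA methylation upkeep, chromatin assembly and histone mRNA mostly did not pass. Uhrf1 (chr17:56303321-56323486), which reads hemimethylated DNA, was the 1 of 5 that rose, at 7.48, 7.83 and 7.71 FPKM in WT against 12.4, 11.3 and 9.99 in PGRN KO (log2 difference 0.49, limma adjusted p = 0.00855). Its partner Dnmt1, the maintenance methyltransferase, was at 15.7, 15.4 and 14.4 FPKM in WT against 14.7, 13.8 and 13.6 in PGRN KO, with overlapping groups (-0.11, adjusted p = 0.217). Chaf1a and Chaf1b, of chromatin assembly factor 1, had means of 1.71 ± 0.103 and 1.90 ± 0.273 FPKM, and of 2.22 ± 0.186 and 2.29 ± 0.198 FPKM (adjusted p = 0.512 and 0.819). Of the exon bases of Chaf1a, 52.5% overlap Ubxn6 on the opposite strand. Slbp, which binds histone mRNA, had means of 9.55 ± 0.757 and 11.1 ± 0.889 FPKM (adjusted p = 0.146).

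Of the G1/S regulators, E2f1 and Ccne2 rose. E2f1, the E2F activator, was at 5.84, 5.78 and 5.61 FPKM in WT against 7.78, 8.10 and 7.13 in PGRN KO (log2 difference 0.36, limma adjusted p = 0.00973). Ccne2, cyclin E2, was at 2.43, 3.07 and 2.31 FPKM in WT against 3.40, 4.38 and 4.38 in PGRN KO (0.49, adjusted p = 0.0314), and 17.4% of its exon bases overlap Ints8. That call was lost in 4 of the 6 fits without a library. Neither overlapped between genotypes. Ccne1, cyclin E1, did, at 1.70 ± 0.164 and 1.97 ± 0.198 FPKM (adjusted p = 0.303).

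Calls were counted by level. Of the 5 members with a mean under 1 FPKM, 1 was called, of the 23 at 1 to 5 FPKM 13 were, of the 14 at 5 to 10 FPKM 11 were, and of the 7 above 10 FPKM 4 were. Members had between 145 and 13604 fragments over the 6 libraries. Of the 20 members not called, 17 had a higher mean in PGRN KO, and Dnmt1, Fen1 and Pola2 a lower one, which turned above 0 for each of the 3 when libraries were scaled to plain fragment totals. Among the 29 called, 16 kept their call in each fit without a library, and 13 lost it in at least 1. These were Cdc45, Prim1 and Rrm2 in all 6 fits, Rfc2, Rfc4 and Pold2 in 5, Gins2, Lig1 and Ccne2 in 4, Rpa3 in 3, Mcm2 and Gins1 in 2 and Rpa1 in 1. Without PGRN KO replicate 5 the count called was 17, and without WT replicate 2 it was 19.

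**Figure D3:**
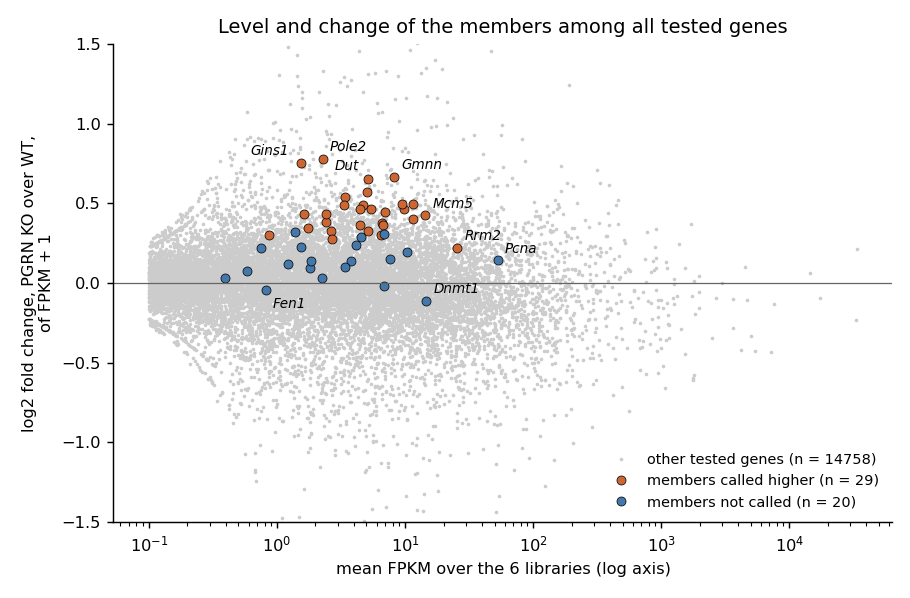
Mean FPKM over the 6 libraries (log axis) against the log2 difference of FPKM + 1, PGRN KO over WT, for all tested genes (grey) and the members (colored by whether they were called). Of the 49 members, 46 lie above 0, with Pole2 and Gins1 highest, and 117 of the tested genes fall outside the axis.

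Members lay on 16 chromosomes. The 4 on chromosome 11, which carries the knocked-out Grn, were Cdc6 at 3.51 Mb from Grn, Tk1 at 15.4 Mb, Rpa1 at 27.1 Mb and Pold2 at 96.6 Mb, so Cdc6, which was not called, was the 1 member within 10 Mb. Exon bases were shared with another gene for 17 members, of which 11 were called higher, and 18 of the 32 members without such an overlap were called higher.

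Other genes of replication and the G1/S switch were read from a separate list. Of a list of 68, 67 passed the filter, 17 rose and 3 fell (limma, adjusted p under 0.05), with a median log2 difference of 0.15, beside 7.94% higher and 9.95% lower over all tested genes. Without any 1 of the 6 libraries 6 to 11 of them were called higher, and 1 lower without WT replicate 1, 2 or 3 or PGRN KO replicate 5. Those that rose were Topbp1, Ticrr, Wdhd1, Tipin, Pold3, Pold4, Pole3, Atad5, Rnaseh2c, Dna2, Dctpp1, Asf1b, Hells, Ccnd3, Cdk2, Cdk6 and Mki67, and those that fell were Top1, Dck and Cdkn1a. On the log2(FPKM + 1) scale the largest changes among them were in Dctpp1, a dCTP pyrophosphatase, from 2.68 ± 0.595 to 5.52 ± 0.366 FPKM, and in Rnaseh2c, an RNase H2 subunit, from 9.43 ± 0.328 to 14.1 ± 0.457 FPKM. The sum over this list overlapped between genotypes, at 743.3 ± 12.8 FPKM for WT and 752.4 ± 5.55 for PGRN KO. Cdkn1a, itself called lower, added most to this sum, followed by Cdkn2d, so the sum says little of the other genes. Singly, 52 of the 67 had a log2 difference above 0 and 15 below. In 34 of them every PGRN KO library lay above every WT library, and in 6 every one lay below. Mki67, encoding the Ki-67 antigen of cycling cells, went from 15.3 ± 1.54 to 22.2 ± 1.20 FPKM (adjusted p = 0.00785). Tipin, of the fork protection complex, and the chromatin remodeler Hells both had a log2 difference of 0.48, from 5.15 to 7.61 and from 0.741 to 1.43 FPKM. In ratios of means Hells, at 1.93-fold, and Atad5, at 1.57-fold, were above Rnaseh2c, at 1.49-fold.

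Regulators of entry into S phase were read singly. Cdkn1a, the CDK inhibitor p21, was at 173.3, 170.7 and 166.3 FPKM in WT against 151.7, 143.1 and 135.2 in PGRN KO (log2 difference -0.25, limma adjusted p = 0.0201), without overlap. The Cdkn1a call did not hold with plain totals (-0.13, adjusted p = 0.133) or voom (-0.13, adjusted p = 0.084), nor in 4 of the 6 fits without a library. Cdk2, the partner of cyclin E, rose from 11.8 ± 0.796 to 14.5 ± 0.0598 FPKM (adjusted p = 0.0201), and Ccnd3, the D cyclin of highest level, from 22.7 ± 1.26 to 27.0 ± 1.17 (adjusted p = 0.0317), and each of these calls was lost in 5 of the 6 fits without a library. Ccnd1 and Ccnd2 had means of 0.154 and 0.129 FPKM and of 1.48 and 1.18 FPKM, and neither passed (adjusted p = 0.797 and 0.117). The origin-firing kinase genes Cdc7 and Dbf4 did not pass (adjusted p = 0.5 and 0.982), with means of 1.82 and 2.03 FPKM and of 3.89 and 3.92 FPKM. Cdkn1b, which encodes p27, was at 34.6 FPKM in both genotypes (adjusted p = 0.997), Samhd1, a dNTP hydrolase, at 55.1 and 54.2 (adjusted p = 0.757), and the p53-induced reductase subunit Rrm2b at 1.53 and 2.08 (adjusted p = 0.0582).

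Of 20 mitosis genes, 11 rose and 0 fell, beside 7.94% and 9.95% of all tested genes. The call of Aurka was lost in all 6 fits without a library, those of Cenpe and Nusap1 in 5, Ccnb2 and Ube2c in 3 and Kif11 in 2. The mitosis list summed to 272.9 ± 8.04 FPKM in WT and 329.0 ± 7.66 in PGRN KO, 1.21-fold, with Ccnb2 the most abundant. At 1.27-fold, the sum over the replication members moved by a like amount, and the difference between the lists was not tested. Of the other lists, basophil and mast cell genes summed to 2.04 to 2.47 FPKM in WT and 11.01 to 12.5 in PGRN KO (4 of 6 rose, led by Prss34). Fcer1a, among the 4, had a WT mean of 0.0594 FPKM and passed the filter only through PGRN KO. Erythroid genes summed to 63.4 to 71.9 and 50.6 to 56.5 FPKM, of which Tfrc, the transferrin receptor and itself lower in PGRN KO, made up 93.1%, while 3 hemoglobin genes rose and Klf1 and Alas2 had means under 0.1 FPKM. Monocyte genes, led by Ly6c2, summed to 529.1 to 535.1 and 554.0 to 703.3 FPKM with 1 of 9 higher and 3 lower, and T and NK cell genes, led by Cd3d, to 0.479 to 1.13 and 0.548 to 0.994 FPKM with Cd3e and Cd3g at 0 in all libraries. Of the 12 mature neutrophil genes, Mmp9 rose and Csf3r and Mmp8 were called lower. With plain totals neither of the lower calls held, at -0.04 (adjusted p = 0.525) for Csf3r and -0.34 (adjusted p = 0.0842) for Mmp8, and without a library they were lost in 5 and 4 of the 6 fits and that of Mmp9 in 3. The part of any of these cells in the replication values was not tested.

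**Figure D4:**
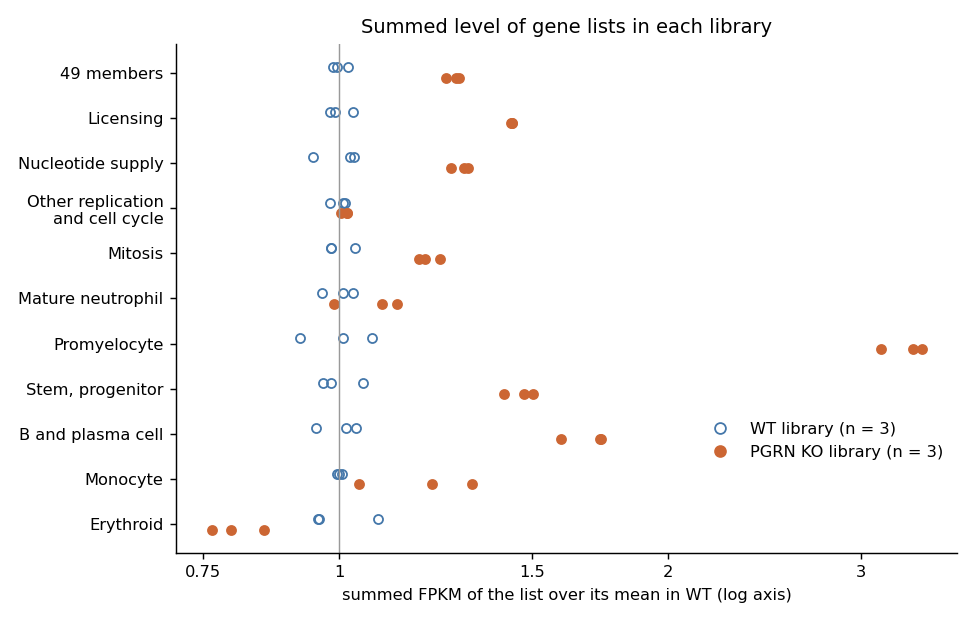
Summed FPKM of the 49 members, of their licensing and nucleotide supply roles, of other replication genes, mitosis genes and the mature neutrophil, promyelocyte, stem and progenitor, B and plasma cell, monocyte and erythroid lists in each library (open points, WT, filled points, PGRN KO), over the mean of the list in WT (log axis). The PGRN KO libraries of the members average 1.27-fold and those of mitosis genes 1.21-fold. The promyelocyte list lies furthest to the right of those drawn. The basophil and mast cell, B cell precursor and T and NK cell lists are left out. The sum of other replication genes, to which Cdkn1a adds most, overlaps between genotypes. Singly, 34 of its 67 tested genes have every PGRN KO library above every WT library, and 6 have every one below.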

How the data were processed

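RNA of 6 neutrophil cultures, 3 WT and 3 PGRN KO, was sequenced. Per the labels, reads were processed with HISAT2 2.0.5, featureCounts 1.5.0-p3 and DESeq2 1.20.0 on GRCm38, whereas the methods of the study name HISAT and HTSeq. The authors deposited FPKM values. Multiplied by gene length they gave whole fragments within 0.05 for 100.0% of values, so fragments per library are known, and they cover counting error only. The authors' values were already scaled by median of ratios (factors of 1.0 here), and fragments over the library size used ran from 1.0337 to 1.0393 for WT and from 0.9458 to 0.9575 for PGRN KO.

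From these, log2(FPKM + 1) was compared between genotypes with limma 3.58.1 (trend, two-sided, Benjamini-Hochberg) in R 4.3.3 over genes with a mean of at least 0.1 FPKM. Tables were read with Python 3.11.15 and pandas 2.3.3. On simulated data 170 of 200 changed genes among 14807 were recovered. Recovery at the sizes of change seen in the members was not tested. A fold on this scale understates the change of low genes. The alternatives were pseudocounts, filters, scalings, voom on fragments, eBayes settings and leaving out each library. Positions are on GRCm38 (start and end the same in GENCODE M21 for 48 members). The members and lists were chosen with earlier results of these data known. Values in every library are given for Grn, each called member and the most abundant member of each role, and means for the other replication genes of largest change and a set of named regulators.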

Additional observations from a re-analysis of the deposited data

How the results depend on the processing

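The count of members called higher was 29 in the fit reported and with pseudocounts of 0.1 and 0.5, robust eBayes, a mean of at least 1 FPKM and median-of-ratios scaling, which changes nothing since its factors were 1.0. It was 23 with every gene above 0, 26 with quantile normalization, 27 without the trend, 33 with plain fragment totals and 38 with voom, and leaving out a library gave 17 to 22, lowest without PGRN KO replicate 5 (17) and WT replicate 2 (19). No member was called lower by limma under any of these settings, and at an unadjusted p under 0.05 1 was lower without WT replicate 3 and 1 without PGRN KO replicate 4. The median log2 difference of the members was 0.43 and 0.39 with pseudocounts of 0.1 and 0.5, 0.41 with plain totals and 0.56 with voom, where the median of all genes moved from 0.00255 to 0.0668 and 0.124, leaving the members 0.35 and 0.44 above it. Over all genes, 1175 were called higher and 1473 lower (44.4% of calls higher), 2149 and 934 with plain totals (69.7%), 2986 higher with voom (70.5%), and 540 to 913 higher and 775 to 1248 lower without a library (over 1.5 times fewer higher without WT replicate 1, 2 or 3 or PGRN KO replicate 5, and fewer lower without WT replicate 1 or 2 or PGRN KO replicate 5). Other replication genes called higher numbered 17, 27 with plain totals, 40 with voom and 6 to 11 without a library, and those called lower 3, or 1 to 3 without a library. Members whose sign turned, none of them called, were Dnmt1 (0.00313 with plain totals, 0.00316 with voom), Fen1 (0.00691 and 0.0293, and 0.0611 without WT replicate 2, 0.00815 without WT replicate 3, 0.0954 without PGRN KO replicate 5), Pola2 (0.0877 and 0.1003, and 0.0450 without WT replicate 2, 0.00668 without PGRN KO replicate 6), Chaf1b (-0.0164 without WT replicate 3, -0.000738 without PGRN KO replicate 6), Gins3 (-0.0536 without WT replicate 3) and Orc1 (-0.0348 without WT replicate 2, -0.0102 without PGRN KO replicate 4). Over all fits without a library the ranges reached 0.0824 for Chaf1b, 0.22 for Gins3 and 0.0810 for Orc1, and down to -0.205 for Fen1 and -0.0570 for Pola2. The cause was not tested. No paired analysis was possible because the genotypes share no replicate number. With 3 libraries a group, members near 1 FPKM rest on few fragments, from 145 over the 6 libraries.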
